A study of Mus musculus with 24 samples.

Results

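The regions described here are the 4414 distal ATAC-seq peaks that mouse haematopoietic stem and progenitor cells shared in all 11 deposited peak lists, whichever population was sorted and whether or not Daxx was deleted. They were chosen by 2 conditions on positions. A member is a distinct interval of the peak list of DKO KLS cells that lies more than 1000 bp from every annotated transcription start site (GENCODE, mm10) and overlaps, by at least 1 bp, a peak in each of the other 10 lists. The DKO list holds 22156 distinct intervals on the standard chromosomes, of which 9888 are distal, so members make up 44.6% of its distal peaks and 19.9% of all its peaks. Open regions that the DKO list, the shortest of the 11, lacks cannot be members.

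ATAC-seq marks open chromatin by the DNA into which the Tn5 transposase can insert sequencing adapters. Open regions away from promoters include enhancers, which bind lineage transcription factors such as Pu.1, Runx1 and Gata factors, and sites of CTCF, a zinc-finger protein that anchors chromatin loops and acts at insulators. Daxx is a chaperone that deposits the histone variant H3.3, and Pu.1, encoded by Spi1, is an ETS-family factor that directs myeloid and lymphoid fate.

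Bone marrow of C57BL/6 mice was sorted into KLS cells (c-Kit+ Lin- Sca-1+, which include stem cells), long-term stem cells (LT-HSCs), the myeloid progenitors called CMPs (common) and GMPs (granulocyte-monocyte), and 24 libraries fell into 11 groups. Every mouse, controls included, is labelled Cre +/-. Daxx-WT mice are Daxx +/+, Daxx-KO mice Daxx F/F and DKO mice Daxx F/F Pu.1 F/F. Per the study's methods, the LT-HSCs, CMPs and GMPs came from mice with the ubiquitous, tamoxifen-induced Rosa26CreERT2, collected either at 3 d.p.i. (LT-HSCs alone) or 3 weeks after tamoxifen (titles without a time), and the Daxx and Pu.1 floxed alleles of the KLS cells were combined with Mx1Cre, whose promoter responds to interferon and is induced by pI:pC, and collected at 3 w.p.i. A group had 2 libraries, except for the Daxx-KO groups at 3 d.p.i. and 3 w.p.i. with 3 each. A legend in the study names Daxx +/F beside Daxx +/+ among the early LT-HSC controls, whereas the labels, followed here, call both Daxx +/+. Ages and sexes are not given in the labels. The Cre line, its inducer and the sorted population differ together between the KLS libraries and the others, and the time after induction differs too for the LT-HSCs at 3 d.p.i., so their parts in any difference between those lists cannot be told apart, and peaks chosen for being in every list cannot check the identity of the sorted cells.

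Each group has 1 peak list, which gives no spread between libraries, and 5 of them (DKO, Daxx-KO and Daxx-WT KLS cells, and Daxx-KO and Daxx-WT LT-HSCs at 3 d.p.i.) give each peak a fold enrichment. Values per library exist only in 3 tables of sites that differed between 2 groups, whose headers show 4.21 to 16.0 reads per window on average. These values are scaled reads, the reads of a library in a site divided by that library's normalisation constant. At the targeted genes, part of the listed sites follow the labels. A site within Daxx (chr17:33913451-33914850) had 79.9 and 45.0 scaled reads in Daxx-WT KLS libraries against 6.36 and 8.43 in DKO, and a site at the end of Spi1 had 31.1 and 58.1 against 2.12 and 4.68. In Daxx-KO KLS cells the corresponding Daxx site had 13.4, 7.0 and 9.41 scaled reads against 88.5 and 53.9. In LT-HSCs a site at the start of Daxx had 69.7, 109 and 61.2 in Daxx-KO against 201 and 366 in Daxx-WT libraries. Other sites at these genes went the other way in DKO. Another Daxx site had 61.5 and 80.6 in DKO against 37.3 and 35.1 in Daxx-WT KLS libraries. The other Spi1 sites listed in that comparison were higher in DKO, with log2 fold changes of group means from 1.20 to 1.38. A Spi1 site among them had 315 and 271 in DKO against 111 and 120. The LT-HSC libraries are given, and numbered, in the order of their columns.

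CTCF and Pu.1 motifs are shown first. Both were held by a larger share of members than of the other distal peaks, as were the Sp/Klf, AP-1, CRE and other ETS motifs given below. All motifs were searched on both strands in the 300 bp around the strongest DKO summit of every peak in the DKO list. The CTCF core, searched by name as a motif with ambiguous letters, was held by 446 members (10.1%), against 3.90% of all peaks in the DKO list and 3.22% of its other distal peaks. To show what these windows look like, the 4 CTCF-holding members with the highest median percentile of fold enrichment are printed here from the reference genome GRCm38.p6 (RefSeq; plus strand, 5′ to 3′), with the motif in capitals. They lie nearest to Gm31166 (chr19:5529355-5529654), Gm6082 (chr9:63124172-63124471), Btbd10 (chr7:113377930-113378229) and Stard10 (chr7:101310658-101310957).
Gm31166: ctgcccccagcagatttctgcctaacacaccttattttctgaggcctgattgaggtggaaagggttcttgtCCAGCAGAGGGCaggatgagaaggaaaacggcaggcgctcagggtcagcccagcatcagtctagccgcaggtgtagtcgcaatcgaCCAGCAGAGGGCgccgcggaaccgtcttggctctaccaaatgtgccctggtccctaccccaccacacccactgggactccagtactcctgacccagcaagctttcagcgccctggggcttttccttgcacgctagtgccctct
Gm6082: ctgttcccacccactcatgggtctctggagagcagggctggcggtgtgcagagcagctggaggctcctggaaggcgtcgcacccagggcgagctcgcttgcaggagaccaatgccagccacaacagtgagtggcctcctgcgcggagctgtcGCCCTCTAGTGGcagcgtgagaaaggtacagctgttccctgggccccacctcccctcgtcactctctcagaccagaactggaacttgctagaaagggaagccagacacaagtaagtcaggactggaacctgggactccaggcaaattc
Btbd10: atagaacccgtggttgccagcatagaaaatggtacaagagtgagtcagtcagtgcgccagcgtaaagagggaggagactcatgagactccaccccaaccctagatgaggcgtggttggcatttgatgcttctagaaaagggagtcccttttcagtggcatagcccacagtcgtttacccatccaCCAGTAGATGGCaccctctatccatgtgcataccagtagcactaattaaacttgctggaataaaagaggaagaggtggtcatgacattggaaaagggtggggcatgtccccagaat
Stard10: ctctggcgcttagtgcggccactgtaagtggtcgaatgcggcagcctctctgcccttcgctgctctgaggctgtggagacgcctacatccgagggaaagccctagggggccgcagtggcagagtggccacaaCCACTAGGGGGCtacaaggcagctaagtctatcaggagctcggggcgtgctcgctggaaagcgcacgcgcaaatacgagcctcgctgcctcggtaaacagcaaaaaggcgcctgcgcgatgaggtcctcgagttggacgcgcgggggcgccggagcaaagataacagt
The member near Gm31166, a pseudogene, holds the core 2 times on the same strand, and in the member near Gm6082 the core lies on the minus strand. Motif copies lay a median of 17.0 bp from the strongest summit over the 458 copies in members. Of the 446 members, 444 had the core on a single strand.

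The Pu.1 motif (GAGGAAGT or ACTTCCTC on the other strand) was held by 360 members (8.16%), against 4.83% of all peaks and 5.37% of the other distal peaks. The 4 such members with the highest median percentile, in capitals at the motif, lie nearest to Gm48575 (chr13:96697824-96698123), Arhgap24 (chr5:102777913-102778212), Tnk2 (chr16:32651060-32651359) and Gm28821 (chr7:143180809-143181108).
Gm48575: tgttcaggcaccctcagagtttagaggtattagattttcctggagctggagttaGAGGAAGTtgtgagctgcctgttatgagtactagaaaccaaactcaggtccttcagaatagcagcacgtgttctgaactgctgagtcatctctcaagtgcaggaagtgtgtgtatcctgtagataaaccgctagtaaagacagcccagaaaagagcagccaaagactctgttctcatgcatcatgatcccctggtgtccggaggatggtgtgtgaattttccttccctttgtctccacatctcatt
Arhgap24: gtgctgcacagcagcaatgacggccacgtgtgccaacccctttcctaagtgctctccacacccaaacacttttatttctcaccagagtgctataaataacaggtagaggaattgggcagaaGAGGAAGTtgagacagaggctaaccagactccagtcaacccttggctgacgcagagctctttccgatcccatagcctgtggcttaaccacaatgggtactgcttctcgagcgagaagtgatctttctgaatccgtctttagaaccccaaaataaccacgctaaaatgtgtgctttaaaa
Tnk2: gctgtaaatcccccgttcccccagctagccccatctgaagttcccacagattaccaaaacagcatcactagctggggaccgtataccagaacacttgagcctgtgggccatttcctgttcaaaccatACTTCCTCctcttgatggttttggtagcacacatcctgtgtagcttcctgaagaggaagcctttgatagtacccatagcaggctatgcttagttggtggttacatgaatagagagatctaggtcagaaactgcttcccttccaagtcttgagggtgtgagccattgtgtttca
Gm28821: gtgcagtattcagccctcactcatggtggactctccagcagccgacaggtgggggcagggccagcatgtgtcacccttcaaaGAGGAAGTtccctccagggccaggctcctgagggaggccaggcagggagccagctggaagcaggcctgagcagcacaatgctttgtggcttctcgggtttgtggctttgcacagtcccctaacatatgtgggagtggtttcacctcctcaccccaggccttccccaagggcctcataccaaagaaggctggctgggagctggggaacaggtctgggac
Tnk2 encodes a non-receptor tyrosine kinase, and the peaks near Arhgap24 and Tnk2 each lie in an intron of that gene, whereas the member near Gm28821 lies in an intron of Kcnq1. Only 10 members held both the CTCF core and the Pu.1 motif.

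The Runx motif (TGTGGTT or AACCACA) was in 15.4% of member windows, against 10.6% of all peaks and 19.0% of the other distal peaks. The AP-1 motif (TGANTCA, its own reverse complement) was in 13.5%, against 8.47% of all peaks and 13.1% of the other distal peaks. The Gata motif (AGATAA or TTATCT) was in 10.8%, against 7.55% of all peaks and 12.3% of the other distal peaks. The GC-rich Sp/Klf box (GGGCGG or CCGCCC), common in promoters, was in 21.9% of members, 43.2% of all peaks, 70.8% of the peaks near start sites in all lists and 9.21% of the other distal peaks. The remaining motifs were rare in members: the ETS form CCGGAAGT (both strands) was in 1.81%, against 5.27% of all peaks and 1.19% of the other distal peaks, the CRE (TGACGTCA, its own reverse complement) in 1.27%, against 2.27% and 0.420%, and the C/EBP motif (TTGCGCAA, its own reverse complement) in 0.272%, against 0.352% and 0.365%. Apart from the CTCF core, no motif's letters contain those of another, although copies can overlap. At least 1 of the 9 motifs was present in 2742 members (62.1%). The shares are counts of letters in a window, were not tested against each other, and show no binding.

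**Figure D1:**
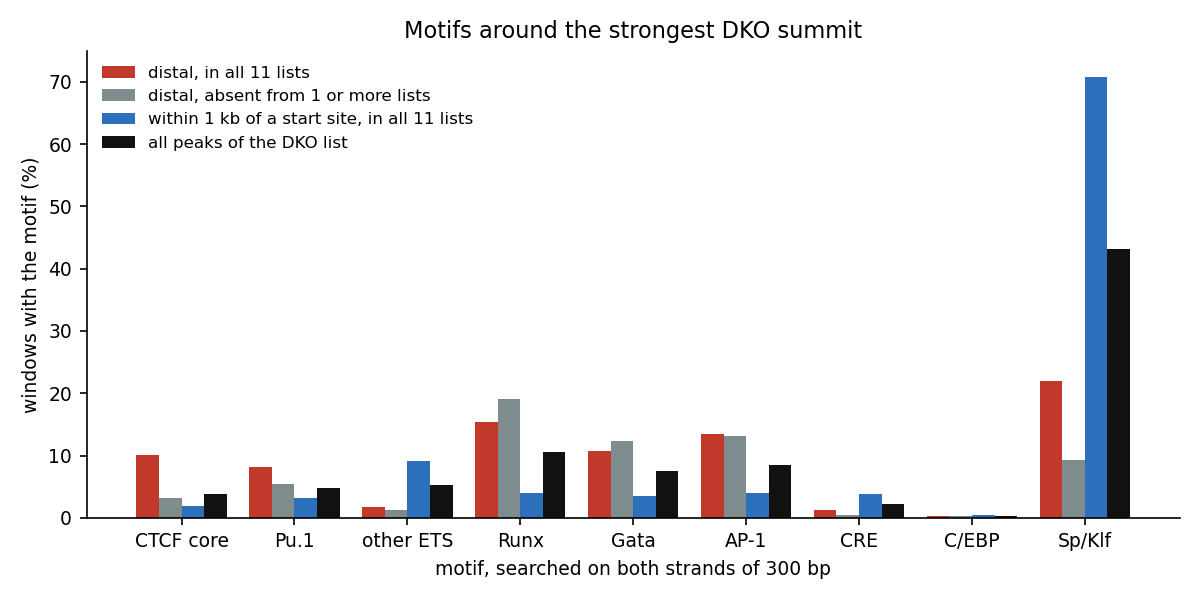
Share of 300 bp windows (y axis, %) that hold each of the 9 motifs (x axis), in 4 sets of peaks of the DKO list. The CTCF core is in 10.1% of the distal peaks shared by all 11 lists and 3.22% of the other distal peaks, whereas the Sp/Klf box is in 70.8% of shared peaks near start sites.

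In position, the members lay a median of 8731.5 bp from the nearest start site (quartiles 4166 and 17821 bp), and the range ran from 1001 to 312889 bp. Between 1000 and 5000 bp lay 1348 members (30.5%), between 5000 and 20000 bp 2113 (47.9%) and beyond 100000 bp 23. They were placed downstream of the nearest start in 2341 cases (53.0%). By annotation 2126 (48.2%) were intergenic, 1993 (45.2%) intronic, 109 lay on a coding exon and 186 on a non-coding exon or UTR. The other distal peaks were intronic more often (54.0%) and intergenic less often (39.9%), a difference not tested. The median GC content of member windows was 53.0%, between the 49.0% of the other distal peaks and the 64.7% of shared peaks near start sites. A second annotation, RefSeq, placed a start within 1000 bp of 379 members (8.59%), which leaves 4035 that are distal in both.

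The 3 members closest to the distance limit lay 1001 bp from Gm37131, 1002 bp from Rnf166 and 1003 bp from Gabbr2, with DKO fold enrichments of 4.28, 4.99 and 3.28. The 3 peaks just outside, also in all lists, lay 996 bp from Gm47964, 993 bp from Zkscan17 and 990 bp from Adgre5, with 5.72, 5.62 and 3.47. Of the distal peaks, 976 were in 10 lists, and the list most often lacking was that of Daxx-WT KLS cells (314), followed by Daxx-WT LT-HSCs at 3 d.p.i. (254) and Daxx-KO GMPs (182). Near start sites, 10922 of 12268 peaks (89.0%) were in all 11 lists.

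Members were spread over the whole genome and in part gathered in runs. The gap between neighbours on a chromosome had a median of 125410 bp (quartiles 34945 and 410075 bp), and 865 of 4393 gaps (19.7%) were at most 25 kb. Runs of at least 2 members joined by such gaps numbered 634 and held 1499 members (34.0%). The 2 longest runs had 7 members each, over 69.3 kb on chromosome 1 around Stum and over 110 kb on chromosome 4 around Ski, which encodes a repressor of TGF-β and Smad signalling. A run of 6 lay over 47.6 kb on chromosome 10 between Dnajb12 and Ddit4, an mTORC1 inhibitor induced by stress. Chromosome 11 had the most members per Mb (2.71) and the Y chromosome the fewest (0.0218, 2 members). The most isolated member lay on the X chromosome near Gm23277, 9283140 bp from the next member.

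The members had 3585 distinct nearest genes, 2953 of which were nearest to a single member, and the nearest gene was protein-coding for 2639 members (59.8%). The genes with the most members, 6 each, were Pde4d (a cAMP phosphodiesterase), Ptk2b (a calcium-responsive tyrosine kinase), Ski, Smad3 (a mediator of TGF-β signalling) and Trim27 (a ubiquitin ligase). The Pde4d and Smad3 members all lay in introns, and the Trim27 members in none. By orientation of the CTCF core, of 424 neighbouring pairs on a chromosome, 109 (25.7%) were convergent, 106 divergent and 209 (49.3%) in tandem.

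The width of a member depended on the list. In the DKO list the median was 649 bp (quartiles 481 and 852 bp) and the range 200 to 2481 bp. The peak over the same position was wider in each of the other 10 lists by median, from 714 bp in Daxx-KO GMPs and 752 bp in Daxx-KO CMPs to 1060 bp in Daxx-WT and 1100.5 bp in Daxx-KO LT-HSCs at 3 weeks after tamoxifen. In Daxx-WT KLS cells it was 845 bp and in Daxx-KO KLS cells 940 bp. Between 63.0% (Daxx-KO GMPs) and 96.1% (Daxx-KO LT-HSCs) of members were wider than in the DKO list. With 1 list per group and peak calling settings not given, these widths describe lists, and the part of depth in them was not tested.

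**Figure D2:**
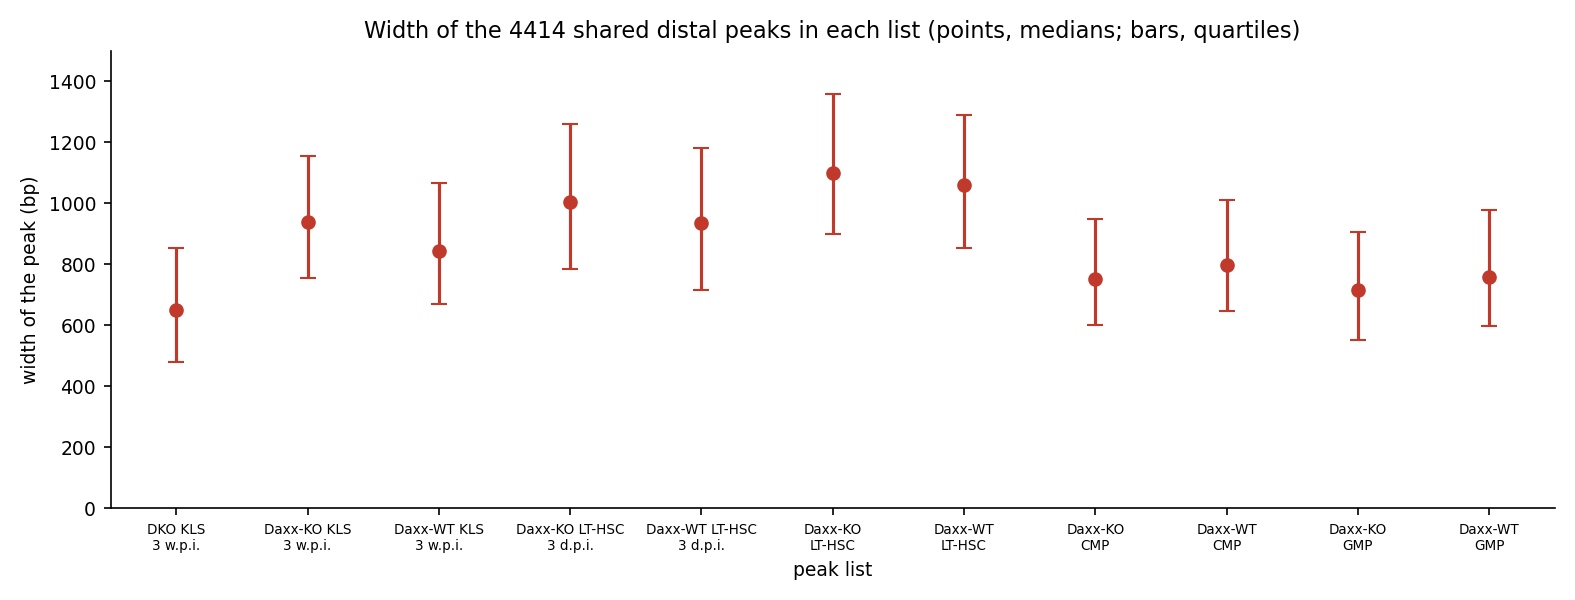
Width in bp (y axis) of the widest peak over each of the 4414 shared distal regions in each of the 11 lists (x axis), as median (point) and quartiles (bar). The DKO list has the smallest median, 649 bp, and the LT-HSC lists without a time label the largest, 1060 and 1100.5 bp.

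Peak strength (fold enrichment at the highest summit of an interval, as the authors' caller gave it) placed the members between the other distal peaks and the promoter peaks in each of the 5 lists. Its median over members was 4.50 in DKO KLS cells, 6.17 in Daxx-WT KLS cells, 7.60 in Daxx-KO KLS cells, 7.35 in Daxx-WT LT-HSCs and 8.21 in Daxx-KO LT-HSCs at 3 d.p.i. Other distal peaks, where present, had medians of 4.0, 5.05, 5.88, 5.27 and 5.61 in that order, and shared peaks near start sites 6.30, 7.58, 8.77, 9.69 and 10.3. The rule asked for a peak in each list, so this order is in part set by the choice of members and is given as description. Ranked against all 15336 intervals that are in all 11 lists, the median member stood at percentile 27.7 in DKO KLS cells and between percentiles 31.3 and 38.3 in the other 4 lists, and 923 members (20.9%) were in the upper 50% of the DKO list's shared peaks, against 1638 (37.1%) in Daxx-KO KLS cells.

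**Figure D3:**
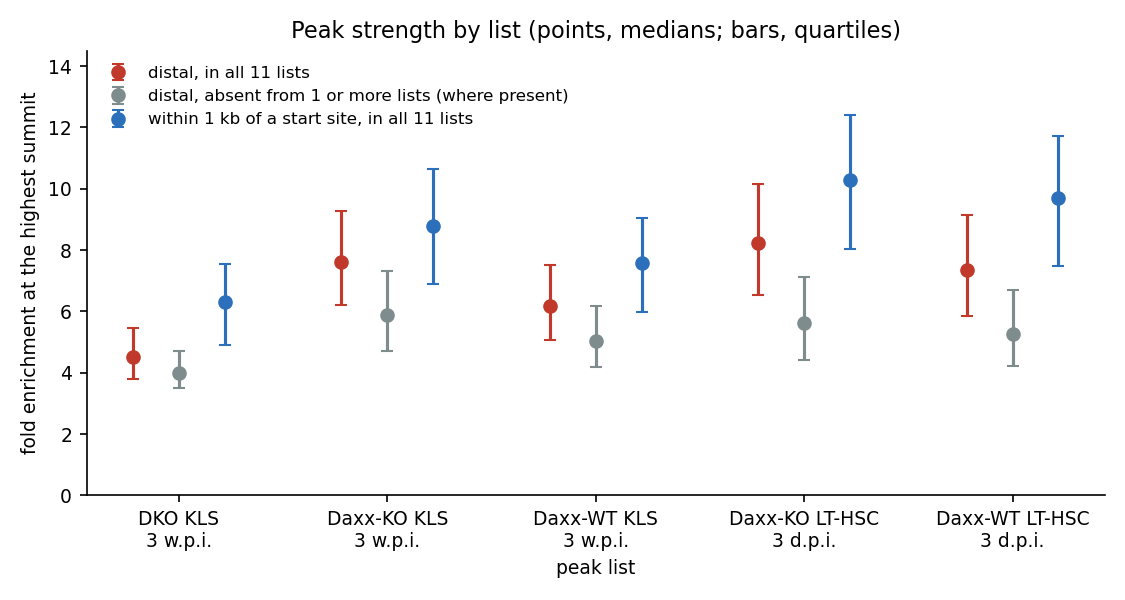
Fold enrichment at the highest summit (y axis) in the 5 lists that give it (x axis), as median (point) and quartiles (bar), for 3 sets of peaks of the DKO list. The shared distal peaks have medians from 4.50 (DKO) to 8.21 (Daxx-KO LT-HSCs) and lie below the shared peaks near start sites in each list.

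The order of the members was kept least between the DKO list and the others. Over the 4414 members, Spearman's rank correlation of fold enrichment was 0.47 to 0.55 between the DKO list and each of the other 4, and 0.75 to 0.90 for the remaining pairs, the highest being that of Daxx-KO and Daxx-WT LT-HSCs (0.90). These are correlations across regions that share libraries, depth and base composition, and regions are not replicates. Of all members, 1240 (28.1%) were in the upper 50% of each of the 5 lists, 597 (13.5%) in the lower 50% of each, and 950 (21.5%) moved by more than 50 percentile points between lists. Members with the CTCF core were narrower (median 487 against 668 bp) and had lower medians in 4 of the 5 lists, with 4.07 against 4.57 in DKO, 7.22 against 7.63 in Daxx-KO and 5.79 against 6.20 in Daxx-WT KLS cells, and 7.20 against 7.37 in Daxx-WT LT-HSCs. In Daxx-KO LT-HSCs their median was 8.31 against 8.19. Members with the Pu.1 motif had medians of 4.63 against 4.48 in DKO, 8.01 against 7.57 in Daxx-KO and 6.63 against 6.14 in Daxx-WT KLS cells. In LT-HSCs the medians were close, with 8.24 against 8.21 in Daxx-KO and 7.43 against 7.35 in Daxx-WT cells.

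Most of the strongest members held sequence that is repeated elsewhere in the genome. The first by median percentile lay 35387 bp from Pak3, a p21-activated kinase gene on the X chromosome, and was 296 bp wide in each of the 11 lists. Its fold enrichment was 43.5 in DKO, 45.9 in Daxx-KO and 44.6 in Daxx-WT KLS cells, and 44.1 and 43.9 in Daxx-KO and Daxx-WT LT-HSCs, the highest of all members in each list. The next were near Gm13191 (27.4 in the DKO list), Gm48224 (20.5), Gm48679 (26.2) and Cldn34d (24.9). The member near Gm48679 had 30.9 and 23.2 in Daxx-KO and Daxx-WT KLS cells against 10.9 and 8.92 in LT-HSCs. Of the 20 strongest members, 18 held 32-mers that occur elsewhere in the genome (a median of 25.4% of their 32-mers), whereas 3196 of all members (72.4%) held none, and no member aligned to the mitochondrial genome. The part of repeated sequence in these values was not tested. The weakest members lay near Chst12, Aurkb and Ptma, with DKO fold enrichments of 2.69, 2.25 and 2.94.

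Of 109 genes in 11 lists of haematopoietic regulators and related functions, 25 were the nearest gene of at least 1 member, 36 members in all. The share of all annotated genes with a member was not computed. Counts depend on the annotation: by nearest protein-coding gene, 6 of 8 fate factors, 5 of 7 heptad factors and 6 of 10 cytokine receptors had members. On that count the granule, interferon and erythroid lists stayed at 1 of 10, 2 of 12 and 1 of 9. Among the granulocyte and monocyte fate factors, 4 of 8 had members: Egr1 (DKO fold 7.75), Cebpe (5.25), Cebpb (3.80) and Irf8 (3.52). Of the stem cell transcription factor heptad, the factors that bind stem cell enhancers together, 4 of 7 had them: Lmo2 (6.13), Runx1 (6.06), Erg (4.53) and Fli1 (4.33). The AP-1 genes Fosb (7.20) and Fos (7.03) were 2 of 9, and the cell cycle genes Ccnd3 (6.82) and Cdk6 (5.87) 2 of 10. The lymphoid regulators Ikzf1 (6.18) and Notch1 (4.18) were 2 of 11, and the cytokine receptors Ifngr1 (6.60), Csf1r (4.02) and Csf2rb (3.92) 3 of 10. Vwf, a marker of platelet-biased stem cells and megakaryocytes, was 1 of 9 erythroid and megakaryocyte regulators. It had a member in its intron with a fold of 6.73 in DKO KLS cells, 9.20 in Daxx-WT KLS cells and 11.8 in Daxx-KO LT-HSCs. Mecom and Hlf, which sustain stem cells, were 2 of 10 self-renewal factors. Their folds were 4.43 and 4.61 in the DKO list, 6.24 and 7.58 in Daxx-WT KLS cells and 8.59 and 10.7 in Daxx-WT LT-HSCs. Medians over all members differed between these lists too, with 4.50, 6.17 and 7.35 in that order. The remaining genes were Prtn3, a granule protease (4.11, 1 of 10 neutrophil granule genes), and the interferon genes Ifit1 (4.26) and Irf7 (3.14), 2 of 12. The cohesin genes Smc3 (4.30) and Nipbl (4.08) were 2 of 13 genes of chromatin architecture and H3.3 deposition. The neutrophil granule protease gene had the lowest value of this group in LT-HSCs, with 3.51 in Daxx-KO and 3.57 in Daxx-WT cells.

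The 3 tables list sites at which accessibility differed between 2 groups. The authors selected these sites by a negative binomial test on the same libraries from which the peak lists were called, so a site over a member is a description, and limma, refitted on all listed sites of a table, is no independent test. Direction was recomputed from the scaled reads per library. In sorted bulk samples, fewer cells with an open region and less opening per cell cannot be told apart. In each table most members were under no site: 242 (5.48%) lay under a site of the LT-HSC table, 282 (6.39%) of the Daxx-KO KLS table and 1026 (23.2%) of the DKO table. Members under no site of any table numbered 3049 (69.1%), against 64.9% of all peaks in the DKO list and 35.0% of its other distal peaks. Distal peaks absent from the Daxx-WT KLS list cannot be members, and 3112 of the 5474 other distal peaks (56.9%) were under a site higher in DKO, against 254 members (5.75%).

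**Figure D4:**
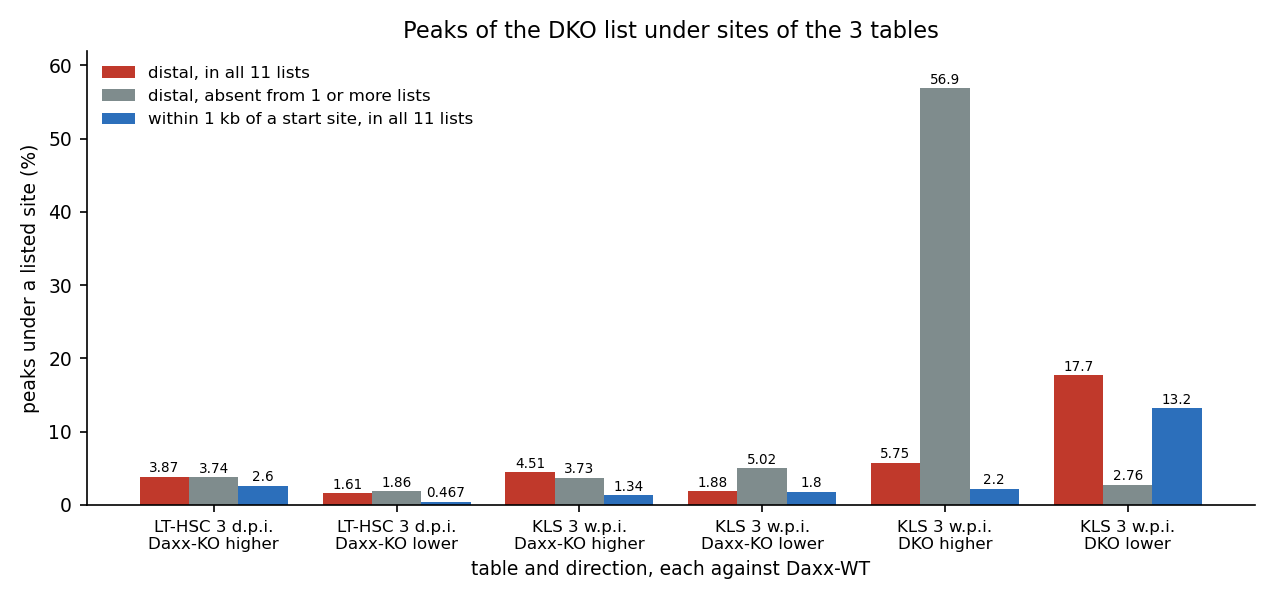
Share of peaks (y axis, %) that overlap a listed site, by table and direction (x axis), for 3 sets of peaks of the DKO list. Of the shared distal peaks 17.7% are under a site lower in DKO and 5.75% under one higher in DKO, and at most 4.51% are under a site of 1 direction in either Daxx-KO comparison.

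In LT-HSCs at 3 d.p.i., 171 members (3.87%) were under a site higher in Daxx-KO and 71 (1.61%) under a lower one, beside backgrounds of 3.19% and 1.12% over all peaks of the DKO list. The groups did not overlap at 167 and 69 of them, beside 3.08% and 1.1% of all peaks. The sites were selected for a difference, and the groups did not overlap at 98.8% of all higher and 99.7% of all lower sites of the table. With limma, 45 members lay under a higher and 16 under a lower site with adjusted p below 0.05 (backgrounds 1.15% and 0.339%). Together these are 61 members, and the number fell to 5 without the first Daxx-KO library, 15 without the first and 7 without the second Daxx-WT library. Higher sites covered a median of 80.3% of the member, whereas lower sites covered a median of 43.1%, and 28 of the 71 covered at least 50%. The largest rise was at the member 4584 bp from Bmf, which encodes a pro-apoptotic BH3-only protein. Its site had 406, 583 and 347 scaled reads in Daxx-KO against 226 and 133 in control libraries, and each knockout library was above both controls (limma log2 fold change 1.32 ± 0.21 SE, adjusted p = 0.000176, n = 3 and 2). Without the second Daxx-WT library the adjusted p was 0.216.

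The sites over the members near Gm13717 and Gm26375 held far more reads. At Gm13717, a pseudogene within an intron of Smo, the Hedgehog signal transducer, 2342, 2653 and 1749 scaled reads in Daxx-KO stood against 909 and 1015 in controls, again without overlap (1.20 ± 0.27, limma adjusted p = 0.0131). Of its 32-mers 65.1% occur elsewhere in the genome. At Gm26375 the values were 6768, 7729 and 4887 against 2398 and 3141 (1.21 ± 0.41, adjusted p = 0.18, limma), with 83.9% repeated 32-mers. The call at Gm13717 was lost without the first Daxx-KO library or either Daxx-WT library. Among the lower sites with the largest change, those near Asb14 (26.6, 12.4 and 29.6 against 46.2 and 52.5) and Snx10 (33.0, 29.6 and 46.5 against 73.2 and 80.7) passed limma with adjusted p = 0.0238 and 0.00638 but not without the first Daxx-KO or the second Daxx-WT library (nor, at Asb14, without the second Daxx-KO or first Daxx-WT library; highest 0.497 and 0.139), and covered 165 and 95 bp of the member, while the site near Armc2 covered 29 bp (17.4, 12.4 and 14.8 against 28.2 and 42.2, adjusted p = 0.0605).

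Of the listed genes, Runx1 and Cdk6 rose in LT-HSCs. Runx1 is a master factor of definitive haematopoiesis, and the site over its member 18108 bp from a start had 154, 171 and 136 scaled reads against 89.0 and 97.5 in controls, a gap without overlap (0.71 ± 0.19, limma adjusted p = 0.037). Cdk6 is a kinase of cell cycle entry, and the site over its member had 72.5, 81.1 and 90.8 against 42.8 and 49.7 (0.80 ± 0.21, adjusted p = 0.0324). Both calls were lost without any 1 of the 5 libraries, with adjusted p up to 0.686 and 0.608. Near Egr1, a regulator of stem cell quiescence, the site over the member 4038 bp from a start had 1014, 1041 and 843 against 620 and 647 (adjusted p = 0.335, limma). At Vwf the values were 206, 202 and 183 against 275 and 271 (adjusted p = 0.473).

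In KLS cells lacking Daxx, 199 members (4.51%) were under a higher and 83 (1.88%) under a lower site, beside backgrounds of 2.66% and 2.78%. The groups did not overlap at 190 and 83 of them, beside 2.55% and 2.76% of all peaks, and at 98.2% and 99.9% of all listed sites of these directions. Limma called 3 members at a higher and 1 at a lower site (backgrounds 0.217% and 0.0542%), and none when any 1 Daxx-KO library was left out. Higher sites covered a median of 85.2% of the member and lower sites 22.5%, with 16 of the 83 lower sites covering at least 50%. The called fall was at the member 30205 bp from the lincRNA gene D930016D06Rik, with 81.3, 87.5 and 80.9 scaled reads against 268 and 290 in controls (-1.73 ± 0.21, adjusted p = 0.000137, limma). Its DKO libraries had 126 and 88.1 in a separately scaled table, where the same Daxx-WT libraries had 252 and 263 (-1.28 ± 0.25, adjusted p = 2.17e-05). Of the 32-mers of this member 47.9% are repeated elsewhere.

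The called rises in Daxx-KO KLS cells were near Ccnd3, Usp10 and Mid1-ps1. Ccnd3 encodes cyclin D3, and the site over its member 36579 bp from a start had 144, 232 and 164 scaled reads against 75.7 and 87.1 (1.11 ± 0.23, limma adjusted p = 0.0421), while DKO libraries had 282 and 243 against 121 and 140 in the other table (1.00 ± 0.25, adjusted p = 0.00134). A second Ccnd3 member, 16099 bp from a start, had 130, 144 and 157 against 93.1 and 84.8 (adjusted p = 0.129). Usp10 encodes a deubiquitinase, and its site had 144, 178 and 183 against 69.3 and 89.4 (1.08 ± 0.22, adjusted p = 0.0396). Mid1-ps1 lies on the Y chromosome, and its site had 1572, 3289 and 2433 against 422 and 904 (1.91 ± 0.34, adjusted p = 0.0171), with the sex of the mice not given. This site (chrY:90740051-90744650) reached far beyond the member, which is 556 bp wide, so most of the site lay outside it. The peak over the member had a fold enrichment of 3.48 in Daxx-KO against 4.48 in Daxx-WT KLS cells. Of its 32-mers 18.5% are repeated elsewhere. The site over the Cebpb member, near the gene of a factor of emergency granulopoiesis, had 168, 173 and 173 against 114 and 119 (adjusted p = 0.294).

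The 2 Daxx-KO comparisons share no library, which allows their members to be set side by side. Under a higher site in both were 27 members, 15.8% of the 171 in LT-HSCs and 13.6% of the 199 in KLS cells, and under a lower site in both lay 2, which is 2.82% of 71 and 2.41% of 83. Of all peaks of the DKO list, 69 were under a higher site in both, which is 9.76% of those higher in LT-HSCs and 11.7% of those higher in KLS cells, and 19 under a lower site in both, which is 7.66% and 3.08%. These shares were not tested. The 27 include the members near Bmf, Usp10, Gm13717, Tram1, Snx9, Tbc1d5, Panx1 and Clec11a. At the Usp10 member the log2 fold change of group means was 1.14 in LT-HSCs and 1.07 in KLS cells, and at Panx1, a membrane channel gene, 0.81 and 1.06. The 3 members near Gm26375 and 2700054A10Rik lie under 1 site in each table and are not independent, and 4 of the 27 had more than 50% repeated 32-mers, against 24 of all 4414 members.

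In DKO KLS cells, 782 members (17.7%) were under a site lower than in Daxx-WT and 254 (5.75%) under a higher one, beside backgrounds of 10.9% and 18.6%, and 10 were under both. The groups did not overlap at 782 and 253 of them, again beside 10.9% and 18.6% of all peaks, and at 14177 of all 14188 lower and 36732 of all 36740 higher sites listed. Limma called 637 members at lower and 217 at higher sites (backgrounds 7.98% and 17.8%), 847 members in all. The number fell to 130 without the first and 359 without the second Daxx-WT library, and to 556 without the second DKO library. Members with a lower site had a median fold enrichment of 4.20 in the DKO list and 7.21 in the Daxx-WT KLS list, whereas members under no site had 4.52 and 6.00. The largest falls by group means were near Gm43874, within an intron of Cntnap2, with 72.1 and 60.0 scaled reads in DKO against 180 and 197 in Daxx-WT libraries (-1.51 ± 0.26, limma adjusted p = 9.01e-07, n = 2 and 2), and in an intron of Lrmda, with 125 and 95.6 against 357 and 249 (-1.44 ± 0.25, adjusted p = 1.02e-06). Another was in an intron of Csf1r, which encodes the receptor of macrophage colony-stimulating factor. Its site had 161 and 111 against 375 and 364, so the higher DKO library had fewer than 50% of the reads of either control (-1.45 ± 0.24, adjusted p = 5.81e-07).

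Fewer members rose in DKO cells. By the rule each member has a peak in the Daxx-WT KLS list, so regions open in DKO alone are not among them. Of the shared peaks near start sites, chosen by the same 11 lists, 13.2% were under a site lower in DKO and 2.20% under a higher one. The site over the member nearest to 5430437J10Rik had 119 and 88.1 scaled reads against 42.6 and 20.8 (1.74 ± 0.29, limma adjusted p = 4.55e-07), and this member holds the Pu.1 motif. The site near Sipa1l1 had 197 and 136 against 55.9 and 57.0 (1.52 ± 0.26, adjusted p = 1.22e-06). Near Ptges, the gene of a prostaglandin E synthase, 235 and 177 stood against 59.5 and 73.5 (adjusted p = 8.92e-08), but the site covered 5 bp of the member. Higher sites covered a median of 56.5% of the member in this table and lower sites 84.3%.

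Of the 36 members near listed genes, 9 were under a site lower in DKO and 1, the Ccnd3 member, under a higher one, and limma called 8 and 1, beside backgrounds of 10.9% and 18.6% of all peaks listed and 7.98% and 17.8% called. Over all members, which like these 36 have a peak in Daxx-WT KLS cells by the rule, the shares were 17.7% and 5.75% listed. Called were 14.4% and 4.92% of all members. The difference from these shares was not tested. In the heptad, both members under a site fell: Lmo2 had 101 and 86.2 scaled reads against 179 and 181 (-0.94 ± 0.25, limma adjusted p = 0.00374), and the Runx1 member 23503 bp from a start had 121 and 112 against 205 and 224 (-0.87 ± 0.25, adjusted p = 0.00712). Mecom had 107 and 89.0 against 234 and 158 (adjusted p = 0.00252), and Hlf 122 and 93.7 against 176 and 163 (adjusted p = 0.0765, not called). The Notch1 member 12641 bp from a start had 133 and 131 against 256 and 302 (-1.07 ± 0.25, adjusted p = 0.000525), and that 2867 bp from a start 99.7 and 73.1 against 172 and 146 (adjusted p = 0.00808). The Egr1 member 25851 bp from a start had 113 and 122 against 241 and 223 (adjusted p = 0.00213), and Vwf 174 and 125 against 263 and 273 (adjusted p = 0.0073). The sites at Lmo2, Runx1 and Egr1 covered 146 of 727 bp, 216 of 841 bp and 347 of 840 bp of the member, less than 50% of it. In each of these sites both DKO libraries were below both Daxx-WT libraries. The peak over the Egr1 member was not weaker in DKO, with a fold of 7.75 against 6.60 in Daxx-WT KLS cells. At Lmo2 the folds were 6.13 and 6.74, and at Runx1 6.06 and 8.21. Of the 8 called falls, those at Csf1r and the Notch1 member 12641 bp from a start kept an adjusted p of at most 0.05 whichever library was left out, with 0.00126 and 0.05 as their highest values. The other 6 and the Ccnd3 rise lost the call without the first Daxx-WT library. Runx1 and Vwf lost it also without the second, and the Notch1 member 2867 bp from a start without the second DKO library. Their highest adjusted p ran from 0.0603 (Lmo2) to 0.307 (Mecom), with 0.121 at Ccnd3.

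**Figure D5:**
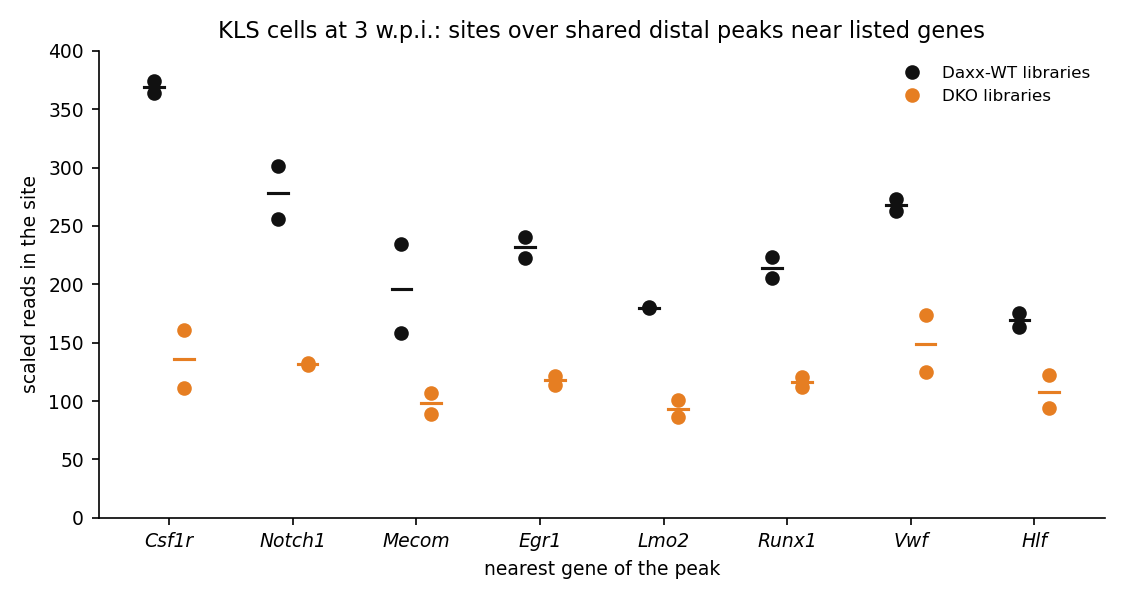
Scaled reads (y axis) in the site over the shared distal peak nearest to 8 listed genes (x axis) in the 2 Daxx-WT and 2 DKO KLS libraries of 1 table, with each point a library and each line a group mean. Both DKO libraries lie below both Daxx-WT libraries at each gene, from Csf1r (161 and 111 against 375 and 364) to Hlf, whose difference was not called.

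By motif, the share of members under a site lower in DKO was 24.7% for the 360 with the Pu.1 motif against 17.1% for those without, and 25.4% against 16.8% for the 476 with the Gata motif. It was 20.1% against 17.3% for Runx and 10.8% against 18.5% for the CTCF core. Over all peaks of the DKO list it was 15.7% with the Pu.1 motif, 13.7% with Gata, 10.1% with Runx and 9.03% with the CTCF core. Under a site higher in DKO were 6.39% of members with the Pu.1 motif against 5.70% without, and 3.78% against 5.99% for Gata. For Runx these shares were 7.20% against 5.49%, and for the CTCF core 2.69% against 6.10%. Over all peaks with the motif the higher shares were 19.9% for Pu.1, 26.4% for Gata, 31.1% for Runx and 3.94% for the CTCF core. None of these differences was tested. A site counted at 1 bp of overlap, and median widths differed by motif. They were 705 bp with and 643 bp without the Pu.1 motif, 691 and 640 bp for Runx, 649.5 and 649 bp for Gata, and 487 and 668 bp for the CTCF core. The part of width in these shares was not tested. The printed members give examples. Near Btbd10, with the CTCF core, 102 and 111 scaled reads in DKO stood against 247 and 242 (-1.20 ± 0.25, limma adjusted p = 9e-05), and near Stard10 67.9 and 61.8 against 114 and 102 (adjusted p = 0.0569). Near Arhgap24, with the Pu.1 motif, 93.3 and 60.0 stood against 198 and 140 (-1.15 ± 0.26, adjusted p = 0.000356), a call lost without the first Daxx-WT library (0.0955). Tnk2 had 46.7 and 27.2 against 72.8 and 79.0 at 1 of its 2 sites (-1.07 ± 0.29, adjusted p = 0.00526, up to 0.359 without the second DKO or either Daxx-WT library), and 72.1 and 55.3 against 108 and 104 at the other (-0.74 ± 0.27, adjusted p = 0.0516). The same Tnk2 member was under a site in Daxx-KO LT-HSCs with 142, 157 and 139 against 101 and 81.6 (adjusted p = 0.0527). For Daxx-KO LT-HSCs, 7.22% of members with the Pu.1 motif and 6.93% with the Gata motif were under a higher site, against 3.58% and 3.50% without, and 1.35% with the CTCF core against 4.16%. Over all peaks with the motif the shares were 5.33%, 6.34% and 1.27%. For Runx the shares were 3.96% of members with and 3.86% without, and 4.56% of all peaks with the motif. For Daxx-KO KLS cells the shares of members under a higher site with and without were 4.17% and 4.54% for Pu.1 and 5.25% and 4.42% for Gata. They were 6.46% and 4.15% for Runx, and 1.12% and 4.89% for the CTCF core. Over all peaks with the motif they were 3.36% for Pu.1, 2.99% for Gata, 5.03% for Runx and 1.04% for the CTCF core. These shares were not tested either.

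The scaling of the libraries bears on the size of these changes. When the reads were rescaled to the mean reads per window in the headers, the median change over each whole table, on the log2 scale, moved by 0.39 in LT-HSCs, 0.48 in Daxx-KO KLS cells and -0.67 in DKO KLS cells, while the share of sites that were higher moved by less than 1 percentage point in each table. The numbers of members under higher and lower sites became 177 and 65, 200 and 82, and 244 and 793. On that scale Csf1r went to -2.06 and Bmf to 1.95, the fall near D930016D06Rik in Daxx-KO KLS cells to -1.15 and the DKO rise near Ccnd3 to 0.35.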

How the data were processed

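ATAC-seq of 24 libraries in 11 groups was read from 11 peak lists and 3 tables of sites on mm10, and groups were taken from the titles and genotypes of the libraries. Per the labels, the submitters' processing named CASAVA 1.8.4, cutadapt 1.13, STAR 2.5.3 and bedtools. Peak calling settings and total read numbers are not given in the sources used here, so intervals that need a depth are not given. In the 5 lists with values the authors deposited a score, −log10 p, −log10 q and a fold enrichment for each summit of an interval, and the other 6 hold positions alone. An interval listed for several summits entered 1 time, by its largest fold (a signal value per summit). The authors' tables were made with diffReps 1.55.6: per the file headers, windows of 600 bp at steps of 50 bp held the reads (fragments of 100 bp), and windows with p-value below 0.0001 in a negative binomial test were merged. A library's value is its read count divided by a normalisation constant, the deposited signal of a site (scaled reads). The authors' log2 fold changes, p-values and adjusted p-values were not used. Columns of per-sample values left unused numbered 0. The columns of the LT-HSC table carry no replicate numbers.

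The members, gene lists and motifs were chosen with earlier results of these data known. Start sites were those of GENCODE release M 21, and RefSeq (GRCm38.p6) gave a second annotation and the sequences. Positions fitted the chromosome lengths of that reference. Repeated sequence was the share of a peak's 32-mers found elsewhere in the genome, and blastn 2.17.0 (E-value at most 1e-10) sought mitochondrial matches. A site counted for a member at an overlap of 1 bp. Limma 3.58.1 (R 4.3.3; eBayes with trend) was fitted on log2(value + 1) over all listed sites of a table, with Benjamini-Hochberg adjustment over the windows that the header reports as tested (413247, 407030 and 446463), so fold changes are on that scale. Results were called at an adjusted p below 0.05. Libraries are called replicates by the labels, and p-values measure the spread between them. On simulated data with 200 sites changed by 4- or 8-fold, 200, 200 and 197 were recovered among 11927, 17311 and 50928 sites, with 15, 9 and 0 unchanged sites called. The simulation had a fixed spread, did not change sites with low means and was adjusted over the listed sites alone. The largest log2 fold change of group means over members was 1.87, below 4-fold. It therefore cannot give the recovery or the false calls of the results here. Other tools were samtools 1.23.1, matplotlib 3.10.9, pandas 2.3.3 and numpy 2.4.6 under Python 3.11.15.

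Named members followed a rule: 1 member per listed gene (at most 4 genes of a list, by DKO fold), the 5 strongest and 3 weakest, the 3 longest runs and most isolated members, the 3 largest changes without overlap between groups per table and direction, the 5 genes with the most members, and the 3 on each side of the distance limit. The second members of Ccnd3, Runx1, Egr1 and Notch1, the called member near Usp10, and those set side by side between Daxx-KO comparisons were chosen after their values were seen. Alternatives covered the overlap, the distance, the start sites, each list in turn, motif windows, scaling, pseudocounts, a filter on low values, each library in turn and a replicate block.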

Additional observations from a re-analysis of the deposited data

Results flagged for a closer look

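The members near Map3k5, Ppard and Gm27509 were under a lower site in Daxx-KO LT-HSCs at 3 d.p.i. and under a higher site in KLS cells lacking Daxx, with every Daxx-KO library below every control in the one and above in the other. The difference between the comparisons was not tested. These 3 stood among 71 members under a lower site in LT-HSCs and 199 under a higher one in KLS cells, and 1 member had the reverse pattern. The sites of the 2 comparisons were not the same stretch of the member. At Ppard they were chr17:28256001-28256950 in LT-HSCs and chr17:28256801-28257550 in KLS cells. At Gm27509 they covered 751 and 285 bp of the member, and at Map3k5 343 and 231 bp. Map3k5 encodes a stress-activated kinase, and its member had a log2 fold change of group means of -0.69 in LT-HSCs (41.3, 49.6 and 43.3 scaled reads against 72.1 and 73.2) and 0.85 in KLS cells (63.5, 108 and 103 against 46.5 and 53.9). Ppard encodes a nuclear receptor of fatty acids, and its member had -0.41 (283, 329 and 245 against 372 and 389) and 0.57 (173, 210 and 212 against 134 and 133). At Gm27509 the values were -0.63 (124, 172 and 111 against 208 and 212) and 0.87 (54.6, 56.9 and 48.9 against 26.5 and 31.0). None of the 6 differences passed limma (adjusted p from 0.0706 to 1). After rescaling to the mean reads per window, the LT-HSC values became -0.21 at Map3k5, 0.0895 at Ppard and -0.08 at Gm27509, so the opposite direction at Ppard depends on the scaling.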

How the results depend on the processing

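The number of members was 4286 with an overlap of at least 50% of the DKO interval, 4737, 3960 and 3066 beyond 500, 2000 and 5000 bp, and 4035 with RefSeq starts also excluded (added after seeing the data). Leaving out each other list gave 4414 to 4728. Keeping the upper 50% of DKO peaks by −log10 q left 1593. The CTCF core was in 28.1% of members with 1 mismatch (13.5% of all peaks) and 11.4% over the whole interval, and the Pu.1 motif in 7.05% of windows of 200 bp and 11.8% of whole intervals. With an overlap of at least 50%, members under lower sites numbered 28 in LT-HSCs and 16 in Daxx-KO KLS cells, those under sites higher in DKO 147, and limma calls in LT-HSCs 38. Limma called 61, 4 and 847 members in the LT-HSC, Daxx-KO KLS and DKO tables. A pseudocount of 5 gave 97 and 83 in the Daxx-KO tables, and adjustment over the listed sites alone 228 and 270. Leaving out 1 library gave 5 to 48 calls in LT-HSCs, 0 to 6 in Daxx-KO KLS cells (0 without any 1 Daxx-KO library) and 130 to 748 in DKO KLS cells (130 without the first Daxx-WT library). The lone library of an arm is then assumed to vary like the other group. With the replicate number as a block, 14 members were called in Daxx-KO KLS cells (its replicate 3 dropped) and 569 in DKO KLS cells. Same-numbered libraries did not deviate together over the listed sites (correlation 0.00844 and 0.0517 in Daxx-KO, -0.00308 in DKO). This check cannot show whether the numbers pair libraries, since it used only sites selected on the same libraries and removed the group means. The block lost the call at Mid1-ps1 (adjusted p = 0.279) and gave calls near Rnf213 (0.0198) and Cdk20 (0.0418), both limma. No paired analysis was possible in LT-HSCs because the columns carry no replicate numbers. Rescaling reversed 3 named sites: Ppard in LT-HSCs (0.0895), and Gm13191 (-0.23) and Cldn34d (-0.10) in DKO.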

Other observations

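The Notch1 member 2867 bp from a start was under sites of opposite direction in Daxx-KO and DKO KLS cells. There the Daxx-KO KLS libraries had 230, 388 and 308 scaled reads against 213 and 177 (adjusted p = 0.247, limma), and DKO libraries 99.7 and 73.1 against 172 and 146 at a site of that table. The same Daxx-WT libraries serve both comparisons. Among the 24 members with more than 50% repeated 32-mers, 5 were under a higher site in LT-HSCs (20.8%), 6 in Daxx-KO KLS cells (25%) and 7 in DKO KLS cells (29.2%), against 3.78%, 4.40% and 5.63% of the other members. The members near Gm26375 and 2700054A10Rik are counted singly here but lie under the same site in each comparison. They are not independent, so these shares overstate the number of separate sites. Shares over all peaks of the DKO list are not given. Members with an AP-1 motif were under a lower site in Daxx-KO LT-HSCs in 4.20% of cases, against 1.20% of those without and 3.25% of all peaks with the motif. In Daxx-KO KLS cells the shares were 2.18%, 1.83% and 3.52%. None of these shares was tested.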
